A study of Homo sapiens with 3 samples.

Results

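In SC1 cells, 715 compact stretches of H3K27ac each held several separate CREBBP peaks. CREBBP is a lysine acetyltransferase that acetylates histones, among them histone H3 at lysine 27 (H3K27ac). The members were the single H3K27ac regions on chromosomes 1 to 22 and X that were under 3500 bp wide and shared at least 1 bp with 2 or more CREBBP peaks. They were 715 of 16442 compact regions, 4.35% (95% interval 4.04 to 4.67%), and 715 of 18263 H3K27ac regions in all, 3.92% (3.64 to 4.21%). All intervals of shares are exact Clopper-Pearson ones at 95%; they take regions or peaks as independent and cover only the error of counting. The study holds 3 samples of SC1, a human lymphoma line that the labels assign to diffuse large B-cell lymphoma. They are a chromatin immunoprecipitation (ChIP) with a CREBBP antibody, a ChIP with an H3K27ac antibody, and an input made with no antibody. Each group held 1 sample, with no treatment given in its labels, although peak names in both lists carry "DMSO" and "rep2". Peak lists of the 2 ChIP samples were used, and the input was not analysed here. No value has a replicate error, and nothing below was tested between cultures.

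Active promoters and enhancers are stretches of open DNA, where transcription factors sit, with acetylated nucleosomes on either side. CREBBP and its relative EP300 do not read DNA sequence themselves and are brought to such sites by transcription factors. They acetylate the nearby histone tails, and their bromodomains can in turn bind acetylated lysines. In germinal-centre B cells and the lymphomas that arise from them, CREBBP is known for its role at enhancers and is often mutated. A region with several CREBBP peaks is a single called block of the mark that several called CREBBP peaks overlap. The summits of these peaks, their local maxima of CREBBP signal, need not lie inside the block. Several summits lay inside it in 600 of the 715 members. The lists carry no gene names, and no annotation of their genome build, hg19, was used here, so members are given by position only.

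The rule itself used the overlap of the lists, and the counts that follow from it are descriptions. Of the members, 678 held 2 CREBBP peaks (94.8%) and 37 held 3 (5.17%), and no member held more. Together they took in 1467 CREBBP peaks, 13.5% of the peaks that met any H3K27ac region and 0.680% of the 215598 peaks in the list. Another 6684 compact regions held 1 CREBBP peak (40.7%) and 9043 held none (55.0%). Among the 1821 regions of 3500 bp or more, 780 held several (42.8%, 40.5 to 45.1%), and over all H3K27ac regions the share was 8.19%. No CREBBP peak touched more than 1 H3K27ac region. Of the members, 27 (3.78%) depended on a second peak that reached less than 50 bp into the region. With CREBBP peaks in the upper 50% by −log10 p there would be 448 members, and with H3K27ac regions in the upper 50% by −log10 q 382. Just outside the rule stood 15 regions with 1 CREBBP peak and a further peak less than 50 bp beyond an edge.

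Neighbouring CREBBP summits in a member lay about 1 kb apart. Over 752 pairs of neighbours, the median distance between summits was 1007.5 bp (interquartile range 750.5 to 1355.5 bp), and the full range ran from 295 to 3603 bp. Of these spacings, 590 lay from 500 to under 1500 bp (78.5%, 75.3 to 81.3%), 20 were under 500 bp and 43 were 2000 bp or more. In members with 2 peaks the median spacing was 1027.5 bp, which was 48.9% of the region's width. In the 37 members with 3 peaks it was 858 bp, and the outer summits spanned a median of 1870 bp. The smallest gap between peak edges in the members was close to that of the whole list. Edges of neighbouring peaks were never closer than 250 bp in the members, against a smallest gap of 249 bp in the whole list, and the shortest CREBBP peak was 248 bp wide. Structure finer than that gap cannot be seen in these lists.

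In regions of 3500 bp or more with several CREBBP peaks, neighbouring summits were farther apart. Their 1211 spacings had a median of 1954 bp (1202.5 to 3097.5 bp), and 17.3% (15.2 to 19.6%) were under 1000 bp, against 49.5% (45.8 to 53.1%) in the members. The width limit restricts the spacing in members, though summits can lie outside a region, so part of this contrast follows from the rule. When only spacings under 3500 bp were kept in the wide regions, the median of the remaining 973 was 1618 bp. Within the members, spacing also went up with width. Its median was 741.5 bp in the 18 members from 500 to 1000 bp wide, 902 bp from 1500 to 2000 bp and 1316 bp from 3000 to 3500 bp. Spacing took up less of the region as width grew, from 92.5% of the width in the narrowest of these bins to 40.7% in the widest. Over the 678 members with 2 peaks, spacing and width had a Spearman rho of 0.43 and a Pearson r of 0.45. This is a description across regions of the same libraries, in which the width limits the spacing. The width is not a strict bound, since summits can lie outside the region, and spacing in members reached 207% of it. Spacing and the H3K27ac fold of the region had a rho of -0.0028 over the same members.

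**Figure D1:**
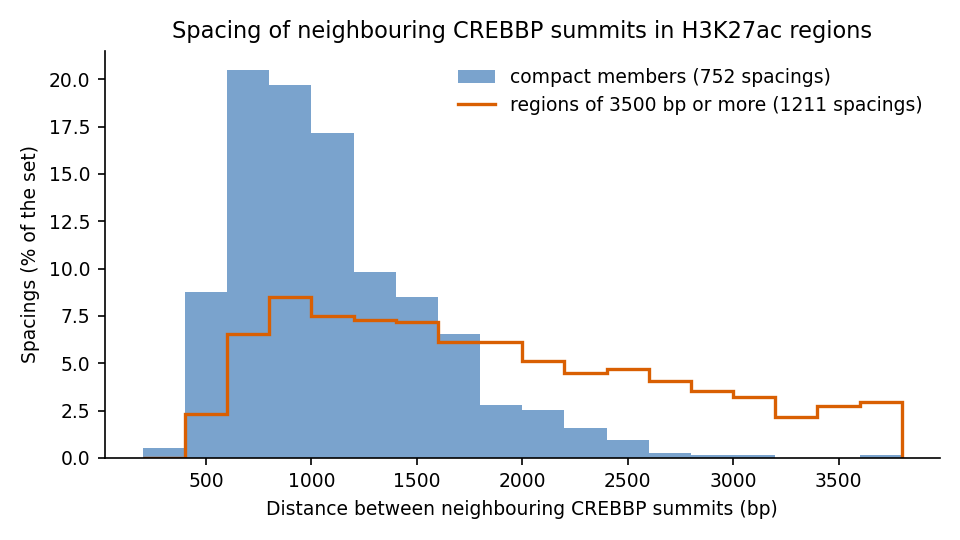
Distance between neighbouring CREBBP summits in bp (x axis, bins of 200 bp) as a percentage of each set (y axis), for the members (filled) and for H3K27ac regions of 3500 bp or more (line). Members have a median of 1007.5 bp, while the wide regions spread more evenly, with a median of 1954 bp and 188 spacings of 3800 bp or more that lie past the axis.

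Most pairs had their summits on either side of the region's centre. Left and right were assigned by order, and the overlap rule and the smallest gap limit where a pair can lie. How much of the placement follows from these limits was not tested. In the 678 members with 2 peaks, the centre of the H3K27ac region lay between the summits in 566 (83.5%, 80.5 to 86.2%), while both lay left of it in 61 and right of it in 51. Counted from the left edge as a percentage of the width, the left summit had a median position of 22.7% (interquartile range 10.5 to 37.6%) and the right summit one of 76.1% (62.0 to 89.0%). The midpoint of the pair was off the region's centre by a median of 244.75 bp, with a signed median of -5.5 bp (95% interval of the median -42.5 to 29 bp), where negative is left of the centre. The left summit stood a median of 496.5 bp inside the left edge and the right summit 531 bp inside the right edge. Left and right refer to hg19 coordinates, since the direction of any gene is not in the lists.

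Calling the first and last 25% of a region's width its flanks, 436 pairs (64.3%) had 1 summit in the central part and 1 in a flank or beyond it. Both summits were in the flanks or beyond in 143 pairs (21.1%), and both in the central part in 99 (14.6%). Members therefore did not follow a single layout, and pairs with both summits at the edges were fewer than pairs with 1 central summit. Over all 1467 member summits, 53.0% (50.4 to 55.6%) lay in the flanks or beyond the edges, against 31.6% (30.5 to 32.8%) of the summits in compact regions with 1 CREBBP peak. In regions of 3500 bp or more with several CREBBP peaks the share was close to that of members, 50.5% (48.3 to 52.7%). Peaks of a pair have to keep at least the smallest gap between them, and cannot both lie at the centre. How much of the difference from regions with 1 peak follows from this was not tested. A summit could also fall outside the region that its peak overlapped. This was so for 127 member summits (8.66%, 7.27 to 10.2%), a median of 95 bp beyond the edge, and for 6.97% (6.37 to 7.61%) in the regions with 1 peak. Regions with 1 peak were narrower, and in each bin of width from 500 bp up the share was higher in members. It was 15.1% against 3.45% from 1000 to 1500 bp wide, and 4.56% against 1.54% from 3000 to 3500 bp. In regions of 3500 bp or more with several CREBBP peaks it was 1.86% (1.31 to 2.55%).

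**Figure D2:**
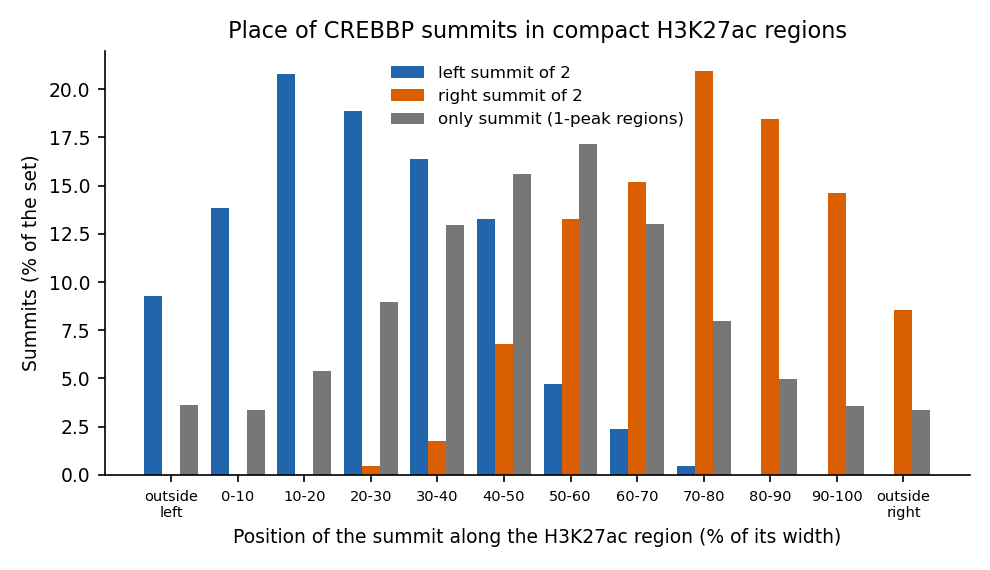
Position of CREBBP summits along compact H3K27ac regions, in bins of 10% of the region's width and outside either edge (x axis), as a percentage of each set of summits (y axis). Left and right summits of the 678 members with 2 peaks have medians of 22.7% and 76.1%, and the only summit of regions with 1 CREBBP peak is most frequent at the centre.

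In members with 3 peaks, the middle summit was assigned by order, so it has a neighbour on either side by definition. The overlap rule and the smallest gap also limit where it can lie. How much of its placement follows from these limits was not tested. The middle summit had a median position of 51.1% of the width and lay in the central part in 36 of 37 members. The outer summits were both in the flanks or beyond in 19 of 37 (51.4%, 34.4 to 68.1%). The middle summit alone had the most fragments in 20 of 37 and alone the fewest in 2. Width went with the number of peaks, with a median of 2924 bp for members with 3 peaks and 2253.5 bp for members with 2.

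In regions with 1 CREBBP peak, the summit was near the middle, with a median distance of 222.25 bp from the centre. The summit nearest to the centre in a member was 282 bp from it, but members were wider, with a median of 2273 bp against 1509 bp. Within bins of width the order changed. From 1000 to 1500 bp wide, the nearest summit was a median of 268.5 bp from the centre in members and 177 bp in regions with 1 peak. From 1500 to 2000 bp the values were 226 and 222 bp, and from 3000 to 3500 bp they were 400 and 568.5 bp. For a member the value is the smallest over several summits. How much of these differences follows from that was not tested.

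**Figure D3:**
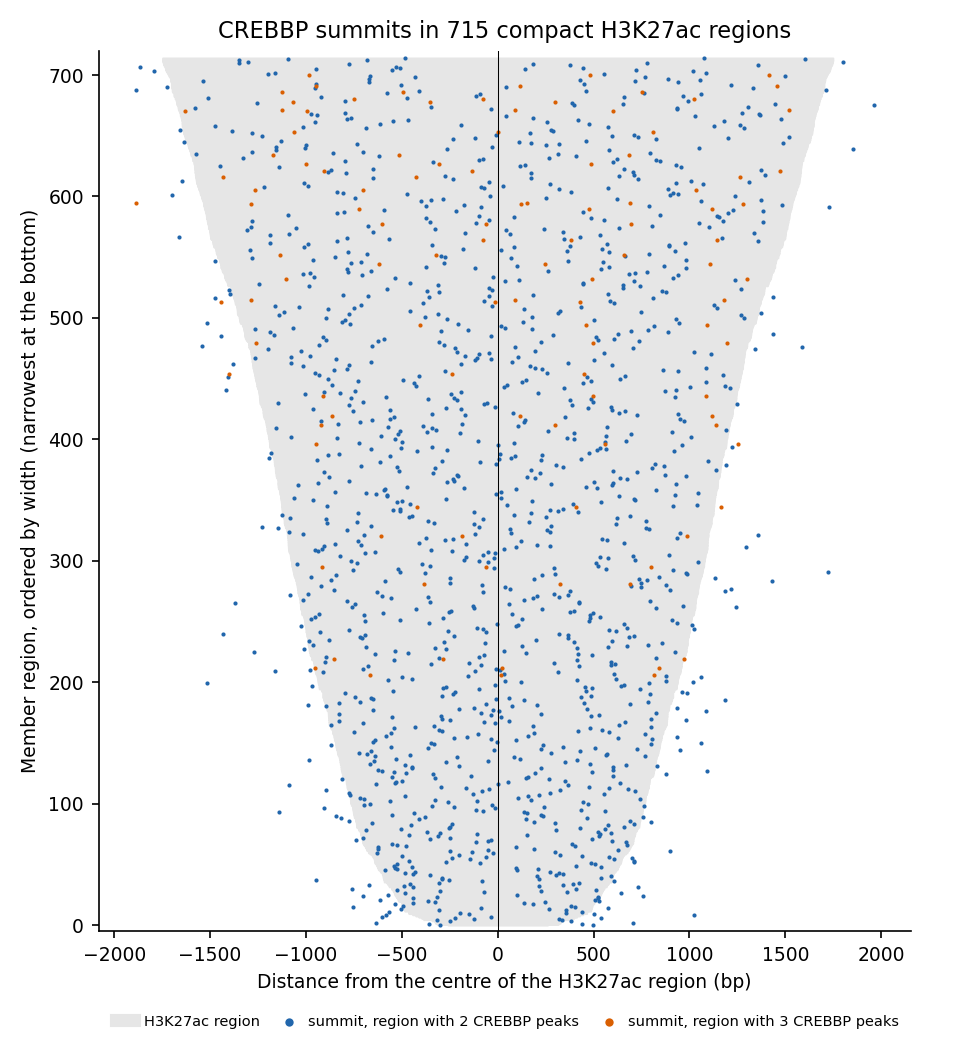
Each row is 1 of the 715 members, ordered by width from the narrowest at the bottom, with the H3K27ac region as a grey bar and its CREBBP summits as points at their distance in bp from the region's centre (x axis). In 566 of 678 members with 2 peaks the summits fall on both sides of the centre line, and 127 summits fall outside the grey bars.

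The fragment number behind each CREBBP peak was worked out from the deposited fold and p. It is the number of ChIP fragments over the summit, and the background is the number the peak caller expected there. Both are inferences, which rest on a Poisson formula that matched −log10 p within 0.001 for all 1467 member peaks. Fragments at member summits had a median of 13 and quartiles of 9 and 21, and backgrounds a median of 5.50 and quartiles of 2.98 and 9.24. Peaks in compact regions with 1 CREBBP peak had 17 fragments (12 to 23) over 7.39 (4.35 to 11.1). Peaks of the whole list had 5 over 1.30. The authors' fold had a median of 2.15 in members and 2.14 in regions with 1 peak, against 2.17 over the list. Member peaks thus had more fragments and a higher background than the list, at about the same fold. Member peaks were a median of 420 bp wide (324 to 583.5 bp), against 464 bp in regions with 1 peak.

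The peaks of a member were often unequal. In members with 2 peaks, the higher summit had a median of 19 fragments (12 to 25.75) and the lower 10 (7 to 15). Their ratio had a median of 1.55 (1.22 to 2.11), and the higher summit had at least 2 times the fragments of the lower in 201 members (29.6%, 26.2 to 33.2%). The left summit had more fragments in 314 members, the right in 326, and 38 had equal numbers. The higher and the lower summit were picked by their own values, so these numbers describe the spread inside a region. The larger background of a pair was a median of 1.56 times the smaller (1.23 to 2.17). Numbers this small also vary by counting. How much of the inequality either makes up was not tested, and no pair was tested.

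The higher summit tended to be the more central of the pair. Among the 640 members with 2 peaks of unequal fragment number, it was nearer the centre in 461 (72.0%, 68.4 to 75.5%). Its median distance from the centre was 381 bp, against 705 bp for the lower. The background moved the same way. The larger background was nearer the centre in 446 of 644 (69.3%, 65.5 to 72.8%), while the larger fold was nearer in 363 of 675 (53.8%, 49.9 to 57.6%). In 241 of 640 pairs (37.7%) the summit with more fragments had the lower fold. The part of the background in the order of the fragment numbers was not tested.

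The same was seen across places within the regions. Member peaks with a summit in the central part had a median of 18 fragments over a background of 7.39, those in the flanks 11 over 4.62, and those with a summit outside the edges 9 over 3.09. The fold had medians of 2.15, 2.15 and 2.17 in these places. In regions with 1 CREBBP peak the fragment medians were 19, 14 and 11, over backgrounds of 8.31, 5.54 and 3.90. Member peaks in the central part therefore had fragment numbers close to those of lone central peaks (interquartile ranges 11 to 24 and 13 to 25), and member peaks away from the centre were lower in fragments. Across the 678 pairs, fragment numbers left and right had a Spearman rho of 0.36, backgrounds one of 0.52 and folds one of 0.10. The points of each pair share the region and the library.

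**Figure D4:**
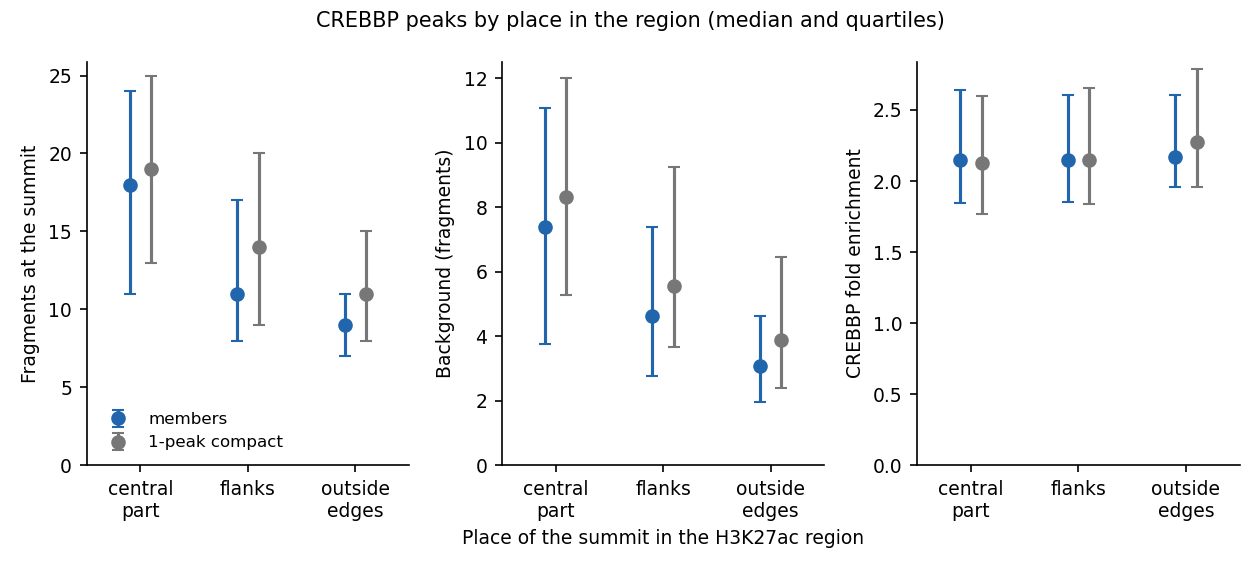
Fragments at the CREBBP summit, background in fragments and the authors' fold enrichment (y axes) by place of the summit in its H3K27ac region (x axis), as medians with quartiles, for members and for compact regions with 1 CREBBP peak. In members, fragments go from 18 in the central part to 11 in the flanks and 9 outside the edges, the background from 7.39 to 3.09, and the fold stays at 2.15 to 2.17.

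Few member peaks were strong on the authors' own scale. Of 1467 member peaks, 240 passed a q of 0.05, 16.4% (14.5 to 18.4%), against 1.81% of the whole list and 18.96% (18.0 to 19.9%) in compact regions with 1 peak. A −log10 q of 0 was listed for 724 member peaks (49.4%, 46.8 to 51.9%), for 43.4% (42.2 to 44.6%) of peaks in compact regions with 1 peak and for 40.1% (37.9 to 42.3%) in wide regions with several. Of the members, 223 held at least 1 peak of that strength, 31.2% (27.8 to 34.7%), against 9.06% of compact regions and 11.4% of all H3K27ac regions. The regions without any CREBBP peak are in those backgrounds, and a member has several peaks that could pass. Only 17 members (2.38%, 1.39 to 3.78%) had 2 or more such peaks, 206 had 1, and in 168 (23.5%) every peak had a −log10 q of 0. In the central part 22.5% (19.4 to 25.8%) of member peaks passed, in the flanks 11.5% (9.17 to 14.2%), and outside the edges 7.87% (3.84 to 14.0%). In compact regions with 1 CREBBP peak the order was the same, with 21.1% (19.9 to 22.3%), 14.7% (13.0 to 16.5%) and 12.9% (9.97 to 16.3%).

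The H3K27ac fold of the members was close to that of other compact regions. This fold, as the authors' caller gave it and taken as a mean over the region, had a median of 5.05 in members (interquartile range 3.29 to 8.05). The median was 4.94 (3.15 to 7.99) with 1 CREBBP peak and 4.74 (2.93 to 7.98) with none. The ratio of members to regions with 1 peak was 1.02, and dividing the ends of the medians' 95% intervals gave 0.940 to 1.12. The order changed with width. From 1000 to 1500 bp wide the medians were 5.55 in members, 4.57 with 1 peak and 4.69 with none. From 2500 to 3000 bp they were 4.96, 5.60 and 5.29. The −log10 q of the mark had a median of 36.6 in members and 33.6 in regions with 1 peak. Over the members with 2 peaks, the fragments of the higher summit and the H3K27ac fold had a rho of 0.059.

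The share of regions that were members went up with width. How much of this the length alone accounts for was not tested. No region under 500 bp was a member (0 of 1692, with an exact 95% interval up to 0.218%). The share was 1.65% (1.29 to 2.06%) from 1000 to 1500 bp, 11.0% (9.58 to 12.5%) from 2000 to 2500 bp and 22.1% (19.0 to 25.4%) from 3000 to 3500 bp. Members with a CREBBP peak of q at most 0.05 were 20.5% of those from 1000 to 1500 bp wide and 40% of those from 3000 to 3500 bp. In compact regions with 1 CREBBP peak the shares in these bins were 17.9% and 26.2%, also higher in the wider bin.

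**Figure D5:**
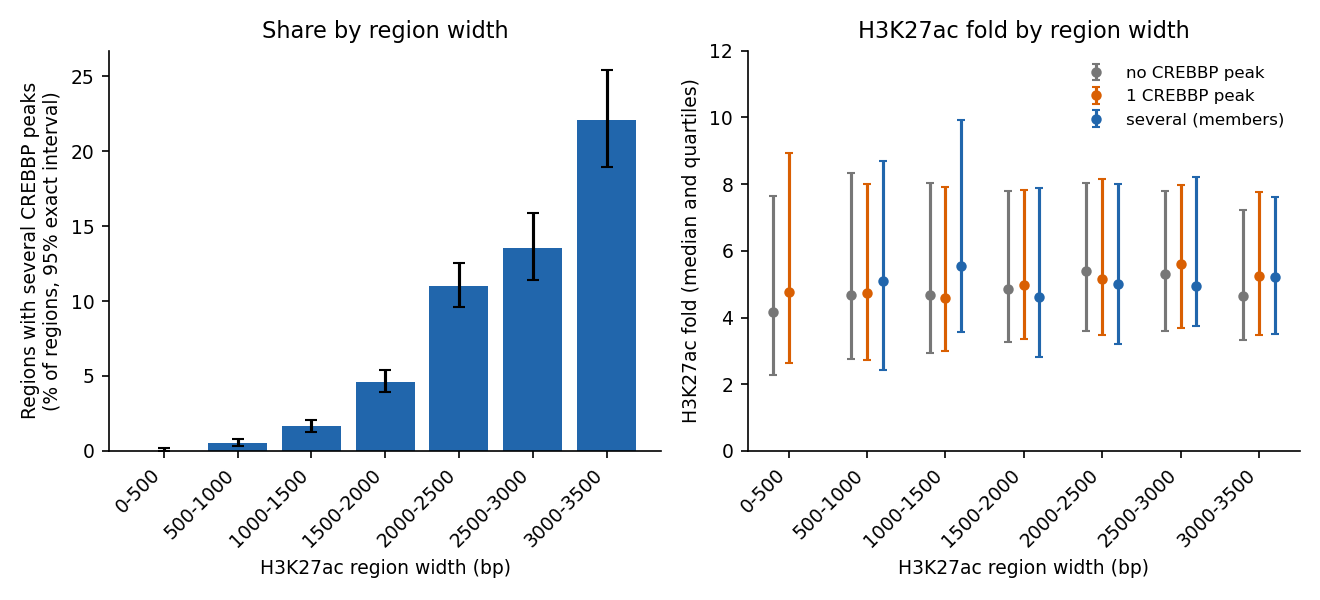
Left, the percentage of H3K27ac regions that held several CREBBP peaks (y axis, bars with exact 95% intervals) by region width in bins of 500 bp (x axis). Right, the H3K27ac fold (y axis, median with quartiles) in the same bins for regions with no, 1 or several CREBBP peaks. The share goes from 0 under 500 bp to 22.1% from 3000 to 3500 bp, while the quartile ranges of fold overlap in every bin.

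Members more often had a further CREBBP peak just beyond their edges. Within 2 kb outside an edge, 154 of 715 members had another CREBBP peak, 21.5% (18.6 to 24.7%), against 15.0% (14.2 to 15.9%) of compact regions with 1 peak and 14.0% (13.3 to 14.7%) of those with none. Among regions of 2000 bp or more the shares were 18.4% (15.0 to 22.2%), 10.7% (9.32 to 12.3%) and 9.76% (8.13 to 11.6%). These peaks were not counted by the rule but come from the same list, and the part of local peak density was not tested. The median distance to the nearest other H3K27ac region was 19.1 kb for members (6.17 to 56.3 kb) and 18.98 kb for regions with 1 peak. Another member lay within 50 kb of 57 members (7.97%).

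Members were found on each of the 23 chromosomes used. They were 6.89% of the compact regions on chromosome 18 (21 of 305, 4.31 to 10.3%) and 6.28% on chromosome 4 (39 of 621, 4.50 to 8.49%). The lowest shares were 2.55% on chromosome 17 (24 of 943, 1.64 to 3.76%) and 3.09% on chromosome 16 (23 of 745, 1.97 to 4.60%). The intervals of chromosomes 4 and 17 did not overlap, but these chromosomes were picked for their values among 23. Over the chromosomes this share had a Spearman rho of 0.27 and a Pearson r of 0.24 with the number of CREBBP peaks per Mb, whose peaks the rule also counts.

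In 17 members, 2 or more CREBBP peaks passed a q of 0.05. The 10 with the strongest second peak follow, with positions on hg19 counted from 1. The region on chromosome 12 from 120729596 to 120731398 was 1803 bp wide, with an H3K27ac fold of 6.21. Its summits were 1279 bp apart, with 32 fragments (CREBBP fold 2.96) 71 bp inside the left edge and 35 fragments (fold 6.19) at 74.9% of the width. The 2 fragment numbers were nearly equal, over backgrounds of 10.2 and 4.81. On chromosome 9 from 69064405 to 69066411, where the mark had a fold of 12.1, summits of 37 and 15 fragments lay 909 bp apart, the higher near the centre and the lower 11 bp beyond the right edge. On chromosome 12 from 98896491 to 98898411 the spacing was 1489 bp, with 15 fragments at 3.15% of the width and 27 at 80.7%. On chromosome 5 from 81044939 to 81048139, where the mark had a fold of 11.7, the summits stood at 23.2 and 74.9% of the width and 1653 bp apart. This pair was almost symmetrical about the centre, -857 bp from it on one side and 796 bp on the other. Its right summit had more fragments, 45 against 35, but the lower fold, 2.16 against 3.86, over a background of 20.3 against 8.31.

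A member with 3 peaks was also among these, on chromosome 14 from 40686141 to 40688554. Its summits had 9, 10 and 5 fragments with folds of 4.34, 4.77 and 2.11, so 2 peaks passed on few fragments over a background of 1.30. On chromosome 6 from 29931822 to 29934363, where the mark had a fold of 10.2, summits of 27 and 19 fragments lay 1215 bp apart, and the left had a CREBBP fold of 5.96. On chromosome 14 from 21149495 to 21152783 the spacing was 2599 bp, with 17 fragments 172 bp inside the left edge and 25 fragments 517 bp inside the right. These summits framed most of the region. On chromosome 2 from 144634566 to 144636015 the mark was weak, with an H3K27ac fold of 2.28, yet CREBBP summits of fold 3.41 and 3.81 lay 1063 bp apart. On chromosome 20 from 25260583 to 25263204, summits of 19 and 25 fragments stood at 15.8 and 69.97% of the width. The last of the 10, on chromosome 1 from 228768573 to 228769425, was only 853 bp wide, and both summits lay outside it, 157 and 598 bp beyond the edges.

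The 5 members with the most CREBBP peaks, ranked by fragments among those with 3, differed in layout. On chromosome 17 from 45725806 to 45728824, the summits held 28, 28 and 25 fragments at 30.1, 47.9 and 73.1% of the width, a compact row spaced by 538 and 759 bp. The rightmost had the highest fold, 2.79, and was the only one to pass a q of 0.05. On chromosome 3 from 186500459 to 186503616, 39, 23 and 11 fragments followed from left to right, and the first had a fold of 3.47. On chromosome 15 from 45490849 to 45493446, 24, 23 and 16 fragments stood at 1.40, 69.0 and 95.9% of the width. Both outer peaks passed a q of 0.05 and the middle did not. On chromosome 19 from 34286193 to 34289031, 25, 20 and 17 fragments gave no peak of that strength. On chromosome 19 from 47613910 to 47617233, the middle summit was the highest, with 30 fragments at 52.7% of the width between summits of 17 and 15.

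Of the 5 members with the largest H3K27ac fold, 4 had no CREBBP peak of q at most 0.05. Among all 715 members, 223 (31.2%) had such a peak, so most had none. The largest fold, 31.2, was on chromosome 1 from 111949182 to 111950317, where CREBBP summits of 19 and 7 fragments lay 1009 bp apart, the higher 103 bp outside the left edge. On chromosome 7 from 64498506 to 64499694, where the mark had a fold of 29.3, summits of 13 and 18 fragments lay 509 bp apart on either side of the centre. On chromosome 20 from 30278601 to 30280707, with a fold of 27.1, both summits were right of the centre, with 7 and 10 fragments. Neither passed a q of 0.05 in these 3 regions. On chromosome 5 from 126705468 to 126707134, where the mark had a fold of 26.2, summits of CREBBP fold 4.92 and 3.62 stood at 9.03 and 84.3% of the width. Its left peak was the one that passed. On chromosome X from 13670598 to 13671945, with a fold of 25.4, both summits had 11 fragments, 434 bp apart.

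Ranked by fragments summed over their summits, the leading members mostly stood on a high background. On chromosome 13 from 91999104 to 92002386, summits of 63 and 89 fragments stood over backgrounds of 48.0 and 53.6, so that the folds were only 1.31 and 1.65. No other H3K27ac region lay within 3198 kb. On chromosome 17 from 80405827 to 80409156, 91 fragments over a background of 13.9 gave a fold of 6.19 at 48.9% of the width, and the second summit had 21 fragments and a fold of 1.39. That pair was the most unequal of the 5, with the higher summit at the centre. A pair of members within 50 kb of each other on chromosome 1, from 228748500 to 228749561 and from 228768573 to 228769425, was alike in layout. In both, each summit lay outside the region, with 55 and 51 fragments in the former and 37 and 46 in the latter, and the next H3K27ac region was 1.19 and 1.18 kb away. On chromosome 7 from 100025837 to 100028833, summits of 35 and 46 fragments had folds of 1.82 and 2.20.

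The shortest spacings came near the smallest gap in the list. On chromosome 13 from 53225925 to 53227576, the summits were 295 bp apart, with 13 and 26 fragments and 253 bp between the edges of the peaks. On chromosome 7 from 73587417 to 73589555, they were 311 bp apart with 33 and 37 fragments, at folds of 1.47 and 1.37. Both pairs had folds under 2 and no peak of q at most 0.05. On chromosome 21 from 34143008 to 34145102 the 2 right-hand summits of 3 were 364 bp apart, on chromosome 7 from 100449640 to 100450834 the spacing was 387 bp, and on chromosome 8 from 116463379 to 116465570 the 2 left-hand summits of 3 were 419 bp apart. The longest spacings reached across the region. On chromosome 5 from 94182660 to 94186053, the summits were 3603 bp apart and both outside the edges, the left peak reaching 7 bp into the region. On chromosome 9 from 116340798 to 116344288 the spacing was 3104 bp, and on chromosome 1 from 44299489 to 44302942 it was 2809 bp. Each of these had a summit beyond an edge.

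The narrowest members held their peaks by the edges only. On chromosome 9 from 22208774 to 22209292, 519 bp wide, summits of 8 and 7 fragments lay 41 and 239 bp outside. On chromosome 14 from 102991171 to 102991800, 630 bp wide, they lay 44 and 127 bp outside. On chromosome 10 from 32607189 to 32607837, 649 bp wide, both peaks shared only 6 bp with the region. In these 3 members no summit was inside. Just under the width limit, the regions on chromosome 1 from 40503699 to 40507193 and on chromosome 3 from 36963878 to 36967372 were both 3495 bp wide, with spacings of 1558 and 2701 bp. The region on chromosome 17 from 27892862 to 27896355 was 3494 bp wide, with 22 and 21 fragments 666 bp apart, both left of the centre. Just over it, regions of 3505 bp on chromosome 5 from 180402385 to 180405889 and on chromosome 8 from 101962597 to 101966101 held 3 CREBBP peaks each. A region of 3516 bp on chromosome 16 from 21528844 to 21532359 held 2, of 31 and 53 fragments.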

How the data were processed

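The tools named, per the submitters' processing notes, are fastp, Bowtie2, STAR and MACS2, and the build is hg19. What each did, its version and settings, the control library and any pooling are not stated there. The authors deposited narrow CREBBP peaks and broad H3K27ac regions, each with a fold enrichment (a ratio of ChIP to expected background), −log10 p, −log10 q and a score. In the deposited broad list these values are taken as means over a region. The deposited CREBBP list also gives summits and reaches down to a −log10 p of 1.30. Read depth is not in the lists and is unknown.

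Chromosomes 1 to 22 and X were kept, so 128 CREBBP peaks and 17 H3K27ac regions were not used. Fragments n and background b at a summit were solved from fold = (n + 1)/(b + 1) and the upper Poisson tail of p, and 99.99% of the list matched within 0.001. Intervals of medians are exact binomial ones from ordered values. Regions were compared by description only, since 1 library per antibody allows no test. The summit and overlap code was tested on simulated data and returned the planted peak number in 3000 of 3000 regions, and the solution returned the right fragments in 957 of 957 peaks made with its own formula.

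The members, measures and alternatives were chosen with earlier results of these data known. Regions are named by rule, as the leading members by number of peaks, H3K27ac fold, summed fragments, spacing and width, those at the width limit, and those with several peaks of q at most 0.05. Alternatives were stronger peaks or regions, stricter overlap, other width limits and CREBBP peaks of q at most 0.05 only, the last chosen after seeing the data. Sequences under the summits were not used here. Python 3.11.15, numpy 2.4.6, pandas 2.3.3, scipy 1.17.1 and matplotlib 3.10.9 were used.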

Additional observations from a re-analysis of the deposited data

How the results depend on the processing

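The number of members, 715, was 448 with CREBBP peaks in the upper 50% by −log10 p, 382 with H3K27ac regions in the upper 50% by −log10 q, 600 with the summit inside, 577 with at least 50% of the peak inside, 442 under a width of 2500 bp, 910 under 4500 bp and 17 with CREBBP peaks of q at most 0.05 only, a setting chosen after seeing the data. The share of compact regions with several CREBBP peaks, 4.35%, was 2.72% with the stronger peaks, 4.75% with the stronger regions, 3.65% with the summit inside, 3.51% with at least 50% of the peak inside, 2.98% under 2500 bp, 5.31% under 4500 bp and 0.103% with q at most 0.05. Median spacing, 1007.5 bp, was 962 bp with the summit inside, 896 bp under 2500 bp, 1068 bp under 4500 bp and 1279 bp with q at most 0.05. The share of summits in the flanks or beyond, 53.0%, was 49.9% with the summit inside, 49.5% with at least 50% of the peak inside, 55.6% under 2500 bp and 61.8% with q at most 0.05. The ratio of H3K27ac folds, 1.02, stayed within its interval under the planned settings, from 0.970 to 1.06, on both sides of 1, and was 1.35 with q at most 0.05, where its interval was 0.826 to 2.08. The share of members with a peak of q at most 0.05, 31.2%, was 38.2% with the stronger peaks and 26.0% under 2500 bp. Every setting but a width under 4500 bp only removes members or peaks, or tightens the overlap, so that its members are a subset of the 715. No library can be left out, and the median member summit rests on 13 fragments, which limits every comparison inside a region. No paired analysis was possible because no group had more than 1 sample.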
